A study of Mus musculus with 12 samples.

Results

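Processed pseudogene transcripts of the mouse hippocampus were examined. They were the transcripts that the GENCODE vM21 annotation types as processed_pseudogene or transcribed_processed_pseudogene and that reached 0.1 TPM (a relative abundance) in 6 or more of the 12 libraries. The rule kept 1271 transcripts, each from its own gene, of 9791 annotated transcripts of these types in the deposited table, and of 115270 transcripts in all. Of the members, 1218 were of the first type and 53 of the second. Among the annotated transcripts left out, 5562 were listed at 0 in every library and 2958 were above 0 but under the rule. The 227 members that met the minimum in exactly 6 libraries had a median mean level of 0.201 TPM, and the 261 annotated transcripts left out that met it in exactly 5 had 0.162 TPM.

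The libraries came from the hippocampi of male C57BL/6 mice at postnatal day 70, with 3 mice in each of 4 groups. The dams of ethanol mice chose freely between water and 10% ethanol during pregnancy, while the dams of control mice had water alone. By the methods of the study the ethanol stayed on offer until postnatal day 10, so that it overlapped the days of separation. Stress mice were isolated for 3 hours a day between postnatal days 2 and 14, and ethanol + stress mice had both exposures. Control mice had neither exposure. The labels give no genotype beyond the strain and tie no mouse to a litter, so that the p-values measure the spread between these mice, littermates or not. By the methods of the study each litter was split at random between separated and undisturbed pups. Control and stress mice may thus be littermates, as may ethanol and ethanol + stress mice. Ethanol was given to the dam, so that effects of ethanol and of dam cannot be told apart here. The values are TPM, a relative abundance of each transcript corrected for its length, estimated with kallisto from stranded libraries depleted of rRNA and scaled between libraries.

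Depth was recovered from the low values of single-transcript genes and ran from 12110000 to 15019700 read pairs per library. All 10 hippocampal neuron markers were above 1 TPM on average, with a summed level of 456 to 533 TPM, while 3 testis markers summed to at most 0.982 TPM. The summed level of the 5 blood markers was 1603 to 2022 TPM for control, 3146 to 6815 for ethanol, 2593 to 3392 for stress and 2454 to 6480 for ethanol + stress libraries, so that every treated library lay above every control library. The 5 choroid plexus markers varied more within the groups, from 40.1 TPM in an ethanol library to 7228 in an ethanol + stress library. Whether these admixtures had a part in any result below was not tested.

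A processed pseudogene is a copy of a messenger RNA that was reverse transcribed and inserted elsewhere in the genome. It lacks the introns of its parent gene, often carries the remains of a poly(A) tail, and has no promoter of its own unless it landed beside one. Abundant housekeeping messengers, such as those of ribosomal proteins and glycolytic enzymes, have left the most copies in mammalian genomes. Some copies kept an intact reading frame and are expressed as retrogenes, while most have decayed. A young copy differs from its parent by few bases, and short reads from either can then match both. Kallisto shares such read pairs out by an iterative estimate over 31-base words, the default word length.

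To show what the measurement could and could not separate, stretches of members are given beside the coding sequence of the parent. All were taken from the GENCODE vM21 transcripts of GRCm38 (mm10), 5′ to 3′ on the strand of the transcript, and capitals mark bases that differ between the copies. Gm10123, the highest member, copies Ppia, which encodes cyclophilin A, a peptidyl-prolyl isomerase. The 60 bases of Gm10123 (chr9:96895658-96895717, plus strand, between genes) and of the start of the Ppia coding sequence (chr11:6415911-6415970, plus strand) had no difference, as held for all 490 bases of the member.
Gm10123: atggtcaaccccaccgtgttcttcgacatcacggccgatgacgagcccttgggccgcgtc
Ppia: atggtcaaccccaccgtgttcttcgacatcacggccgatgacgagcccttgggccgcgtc

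Rpl37rt, a copy of the large-subunit ribosomal protein gene Rpl37, differed from it at 1 of 294 bases. The member's stretch lies at chr5:115103234-115103293 (minus strand, between genes) and that of Rpl37 at chr15:5118571-5118630 (plus strand).
Rpl37rt: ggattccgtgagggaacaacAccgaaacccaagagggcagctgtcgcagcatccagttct
Rpl37: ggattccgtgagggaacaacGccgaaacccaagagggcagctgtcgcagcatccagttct

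Gm4202, a copy of the signalling adaptor gene Ywhaz (14-3-3 zeta), differed from it over 733 aligned positions by 1 inserted base, shown in a capital. The insertion left 26 of its 703 words, each 31 bases long, found in no other transcript. The stretch of Gm4202 lies at chr3:92689553-92689612 (plus strand, between genes) and that of Ywhaz at chr15:36790791-36790849 (minus strand).
Gm4202: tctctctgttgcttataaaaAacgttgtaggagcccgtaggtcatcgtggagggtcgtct
Ywhaz: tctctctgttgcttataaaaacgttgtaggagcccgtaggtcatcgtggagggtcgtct

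Older copies were easier to tell apart. Gm49070 resembles Msl1, which encodes a subunit of a histone acetyltransferase complex, at 95.6% of bases. Its stretch lies at chr14:124398698-124398787 (plus strand, opposite to the gene Fgf14, within an intron of it), and that of Msl1 within chr11:98799294-98800019 (plus strand, with an intron between).
Gm49070: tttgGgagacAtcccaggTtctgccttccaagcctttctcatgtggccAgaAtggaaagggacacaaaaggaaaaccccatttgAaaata
Msl1: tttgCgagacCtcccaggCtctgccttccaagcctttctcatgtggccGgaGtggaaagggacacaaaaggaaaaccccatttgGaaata

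Gm9670 resembles the ribosomal protein gene Rpl13 at 84.0% of bases. It lies at chrX:103507255-103507344 (plus strand, with an exon of the long non-coding RNA gene Jpx on the same strand overlapping the member), and the Rpl13 stretch at chr8:123103213-123103302 (plus strand).
Gm9670: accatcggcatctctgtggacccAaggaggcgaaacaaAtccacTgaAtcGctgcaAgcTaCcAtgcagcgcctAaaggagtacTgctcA
Rpl13: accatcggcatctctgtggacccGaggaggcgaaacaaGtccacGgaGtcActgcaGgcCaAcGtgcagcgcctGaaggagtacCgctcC

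Most members were listed at a low level. The median of the mean level over the 12 libraries was 0.490 TPM, against 1.48 TPM over all 59852 transcripts at the same minimum, and the range ran from 0.0680 to 1148 TPM. Only 376 members reached a mean of 1 TPM and 75 a mean of 10 TPM. For the 1032 members of 400 bases or more, whose read pairs could be estimated, the median was 1.89 read pairs per library. In 262 of them no library exceeded 3 read pairs, the floor used here, and in 184 every library did. The remaining 239 members were shorter, 21 of them shorter than the longest mean fragment of a library, and their read pairs were not estimated. Intervals of counting error are wide at such depth, and a listed 0 can also be a failed estimate.

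The summed level was carried by very few members. The 10 highest held 56.8% of it, and the 99 members without a word of their own held 68.0%. By contrast, the 546 members with 80% or more unique words held 7.38%. In total the members amounted to 0.793% to 1.02% of all deposited TPM of a library.

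**Figure D1:**
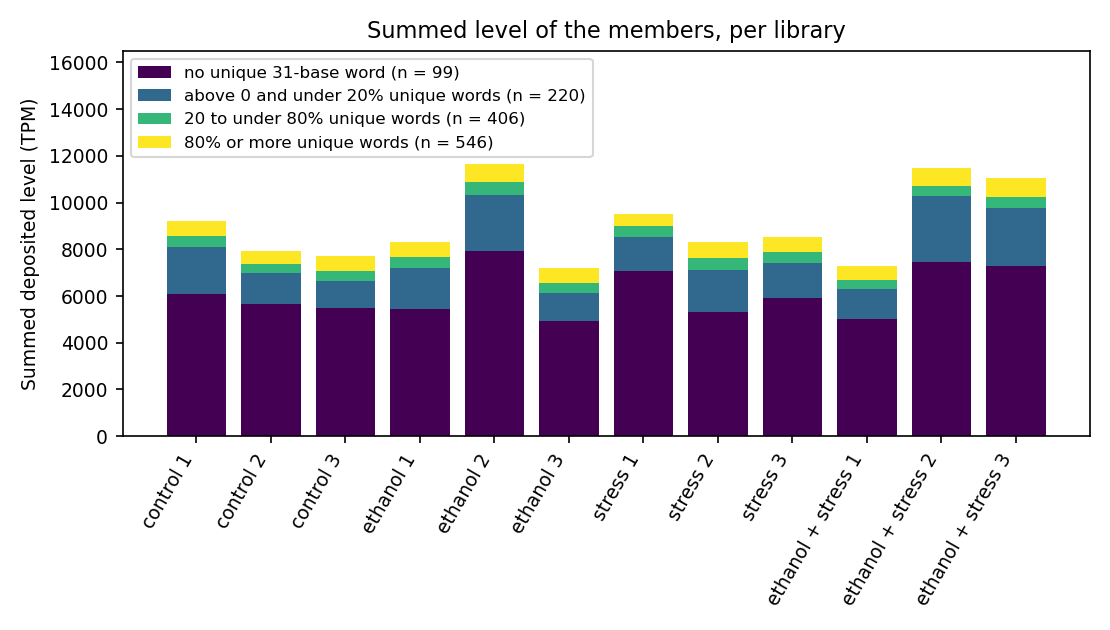
Stacked bars give the summed deposited level (TPM) of the members in each of the 12 libraries, split by the share of a member's 31-base words that no other transcript holds. In every library the 99 members without a unique word make the largest layer, and the 546 members with 80% or more unique words add 665 TPM on average.

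The summed level was 9192, 7917 and 7703 TPM for control mice. It was 8330, 11644 and 7184 TPM for ethanol mice, 9521, 8303 and 8524 for stress mice, and 7302, 11492 and 11065 for ethanol + stress mice. The 3 highest sums came from ethanol replicate 2 and ethanol + stress replicates 2 and 3, the libraries whose values over all transcripts also sum to the most. Group means ± SD (n = 3) were 8271 ± 805, 9053 ± 2316, 8783 ± 649 and 9953 ± 2306 TPM, and the ranges of all groups overlapped. Limited to the 952 members with 20% or more unique words, the sums were 1038 ± 87.0, 1178 ± 142, 1094 ± 95.4 and 1185 ± 149 TPM in the same order.

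Of the members, 1081 (85.1%) aligned to the coding part of a parent gene, 571 genes in all. Of the 1019 whose parent has introns, 965 (94.7%) ran across at least 1 exon junction of the parent without its intron, with a median of 4 junctions. The remaining members included 112 that matched only a non-coding part of protein-coding transcripts and 78 that matched no protein-coding transcript over 50% or more of their length. Identity to the parent had a median of 91.3%, against 88.3% for annotated transcripts that were not members. The longest open reading frame covered a median of 30.3% of the parent's coding length, and in 146 members (13.5%) it covered 90% or more, against 6.98% of the annotated transcripts left out.

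Level followed identity only at the very top. The 48 members at 100% identity over the aligned part had a median of 21.6 TPM and held 61.4% of the summed level. The 121 members from 99% to under 100% had a median of 0.647 TPM, and the classes below, down to under 80%, had medians of 0.356 to 0.402 TPM. The share of the annotated transcripts that met the rule fell along the same classes, from 38.4% at full identity to 28.7%, 15.2% and 9.09%, and stood at 8.81% and 10.6% in both classes under 90%. The members under 80% identity had a median of 100% unique words.

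**Figure D2:**
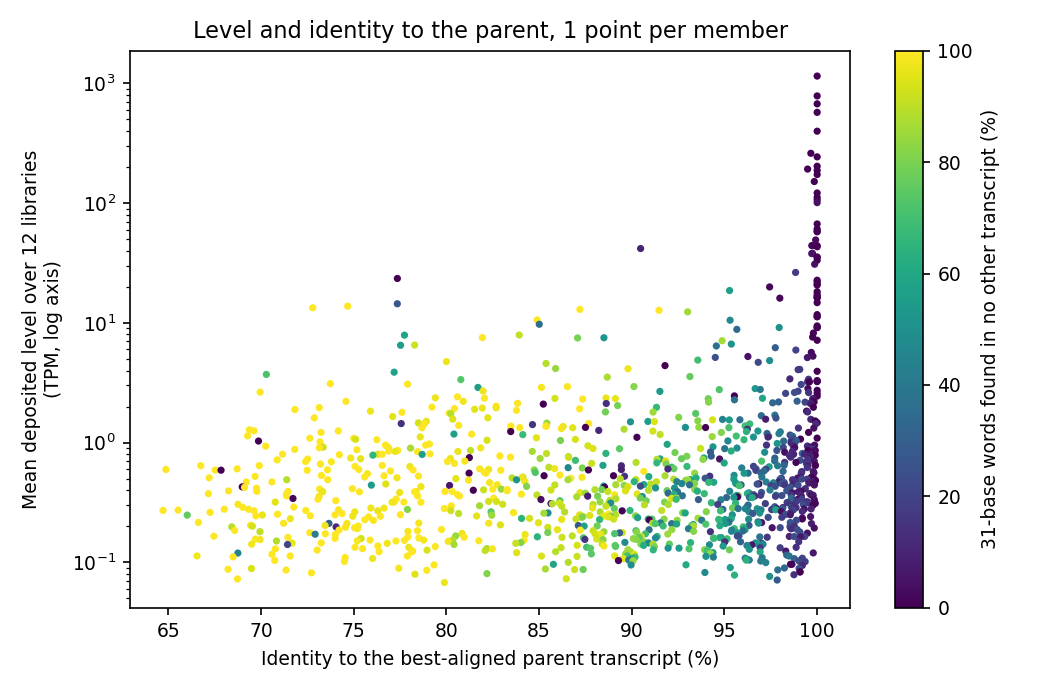
Each point is 1 of the 1081 members with a coding parent, placed by its identity to the parent (%, horizontal) and its mean level over 12 libraries (TPM, log axis) and shaded by its share of unique 31-base words. The 5 highest points are Gm10123 (1148 TPM), Rpl27-ps3, Gm7536, Rps23-ps1 and Ndufb4c, all at 100% identity and without a unique word.

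The highest members were copies of messengers that nearly every cell makes in quantity. Gm10123 ranged from 922 TPM (ethanol replicate 3) to 1484 TPM (ethanol + stress replicate 3). Rpl27-ps3 (mean 784 TPM) and Gm7536 (673 TPM) copy the ribosomal protein genes Rpl27 and Rpl27a, and Rps23-ps1 (572 TPM) copies Rps23. Ndufb4c (398 TPM) is a copy of Ndufb4, a subunit of respiratory complex I. It was followed by Rpl37rt (260 TPM), by Rpl28-ps1 (243 TPM), and by Tpt1-ps3 (203 TPM), a copy of the translationally controlled tumour protein gene. None of these 8 members held a unique word. A word also counts as shared where another transcript of the same gene holds it. Whether this applies to Rpl37rt, which differs from Rpl37 at 1 base, was not examined.

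Rpl37rt was at 323, 339 and 239 TPM for control and 193, 149 and 193 TPM for ethanol mice. The ethanol mice all lay below the controls, but the difference did not pass the threshold given below (-0.74 ± 0.29 SE on the log2 scale, adjusted p = 0.866, limma), and Rpl37 lay at 637 to 649 TPM for control and 626 to 969 TPM for ethanol mice. Rpl37rt was at 412, 290 and 210 TPM for stress mice, on both sides of the control range. It was at 161, 317 and 295 TPM for ethanol + stress mice, below or within that range.

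How the level was divided between copy and parent differed from pair to pair. Of the 44 members identical to a stretch of their parent over their whole length, 6 were listed above 50% of the summed level of copy and parent gene in the median library. The deposited level of Rpl27-ps3 was 94.6% to 96.2% of that sum in the 12 libraries, with the parent Rpl27 at a mean of 37.9 TPM. Gm10123 took 34.7% to 37.7% of the sum with Ppia, and Ndufb4c took 64.9% to 71.8% of that with Ndufb4. In these pairs the division was nearly fixed. Elsewhere it was erratic, as the copy fell below 1% of the sum in at least 1 library for 13 of the 44. The coefficient of variation over the 12 libraries had a median of 31.8% for the copies and of 16.1% for the sums of copy and parent, and it was larger for the copy in 43 of 44 pairs.

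**Figure D3:**
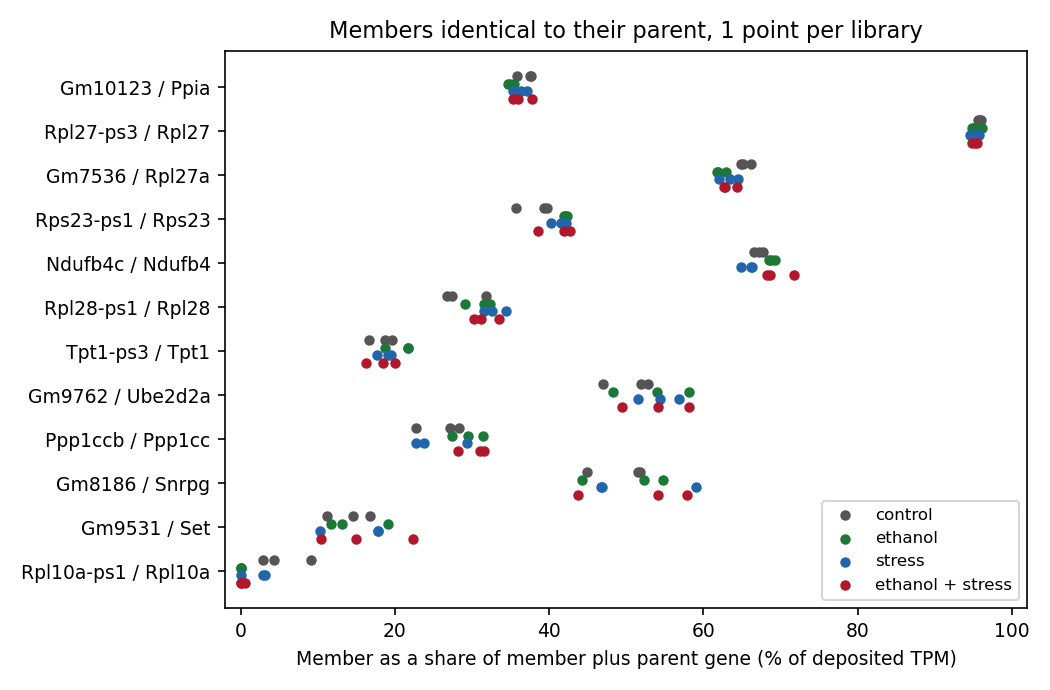
For 12 named members that are identical to their parent, points give the member's share of the summed deposited TPM of member and parent gene in each library (%, horizontal), coloured by group. Rpl27-ps3 stays between 94.6% and 96.2%, while Rpl10a-ps1 runs from 0% to 9.09%.

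Both Gm12895 and Gm12896 (mean 419 TPM each) stood apart among the highest members. They are short and aligned to no protein-coding transcript over 50% or more of their length. They lie between genes on chromosome 4, share 224 bases without a mismatch, and were listed at the same values in every library. These were 508, 222 and 133 TPM for control, 409, 678 and 183 for ethanol, 251, 438 and 315 for stress, and 213, 951 and 732 for ethanol + stress mice. The groups overlapped and the SD of a group reached 379 TPM. The whole of Gm12895 (chr4:122455210-122455435, plus strand) is shown because it names no parent, with the 2 bases outside the shared part in capitals.
Gm12895: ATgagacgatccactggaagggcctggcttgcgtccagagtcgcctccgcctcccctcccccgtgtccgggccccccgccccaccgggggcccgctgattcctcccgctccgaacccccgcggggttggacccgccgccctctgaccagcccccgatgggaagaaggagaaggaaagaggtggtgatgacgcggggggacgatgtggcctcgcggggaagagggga

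By family, ribosomal proteins gave the most members. Parents of the large subunit had 196 members of 1609 annotated copies (12.2%) and parents of the small subunit 127 of 833 (15.2%), with 43 and 25 parent genes. They held 26.0% and 11.8% of the summed level, but their median members were at 0.530 and 0.439 TPM, close to the median of all members. Group means of the summed large-subunit copies were 2281 ± 117 TPM for control, 2289 ± 607 for ethanol, 2307 ± 397 for stress and 2497 ± 609 for ethanol + stress mice (SD, n = 3). Rpl7a had 27 members and Rpl17 had 15, and among small-subunit genes Rps2 and Rps6 had 23 each. The copies of Rps6 were the most diverged of these, with a median identity of 75.8% and a mean summed level of 6.82 TPM.

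Glycolytic enzymes had 84 members of 490 annotated copies (17.1%), the highest share of any family of named parents. Gapdh, the glyceraldehyde-3-phosphate dehydrogenase gene, alone was the best parent of 51, more than any other gene among those to whose coding part members aligned. The median of the 84 was 0.282 TPM, under the median of all members, and the highest, Gm7336, was at a mean of 7.60 TPM with no unique word, against 1708 TPM for Gapdh itself. The 84 together summed to 44.1 TPM. By contrast, the 11 copies of Ppia summed to 1158 TPM, nearly all of it Gm10123.

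The other families were smaller. Translation factors had 36 members of 221 copies, ubiquitin and proteasome genes 32 of 213, led by Gm9762 (106 TPM), a copy of the ubiquitin-conjugating enzyme gene Ube2d2a, and cyclophilins and chaperones 35 of 252. Chromatin proteins and histones had 47 of 492, led by Gm15387 (151 TPM), a copy of Hmgb1, a DNA-binding chromatin protein. Actin, tubulin and thymosins had 25 of 172, led by Gm15725 (4.40 TPM), which resembles Actb, lies across an exon of Lrrc58 on its strand and holds no unique word. Signalling adaptors and small GTPases 22 of 219, and RNA binding and splicing proteins 29 of 331, led by Gm8186 (44.0 TPM), a copy of the spliceosome gene Snrpg. Iron, redox and nucleotide enzymes had 15 members. Mitochondrial respiration and ATP synthesis had the lowest share, 21 of 301 (6.98%), and the highest median level of the named families, 1.51 TPM. A further 412 members had 342 other parents.

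**Figure D4:**
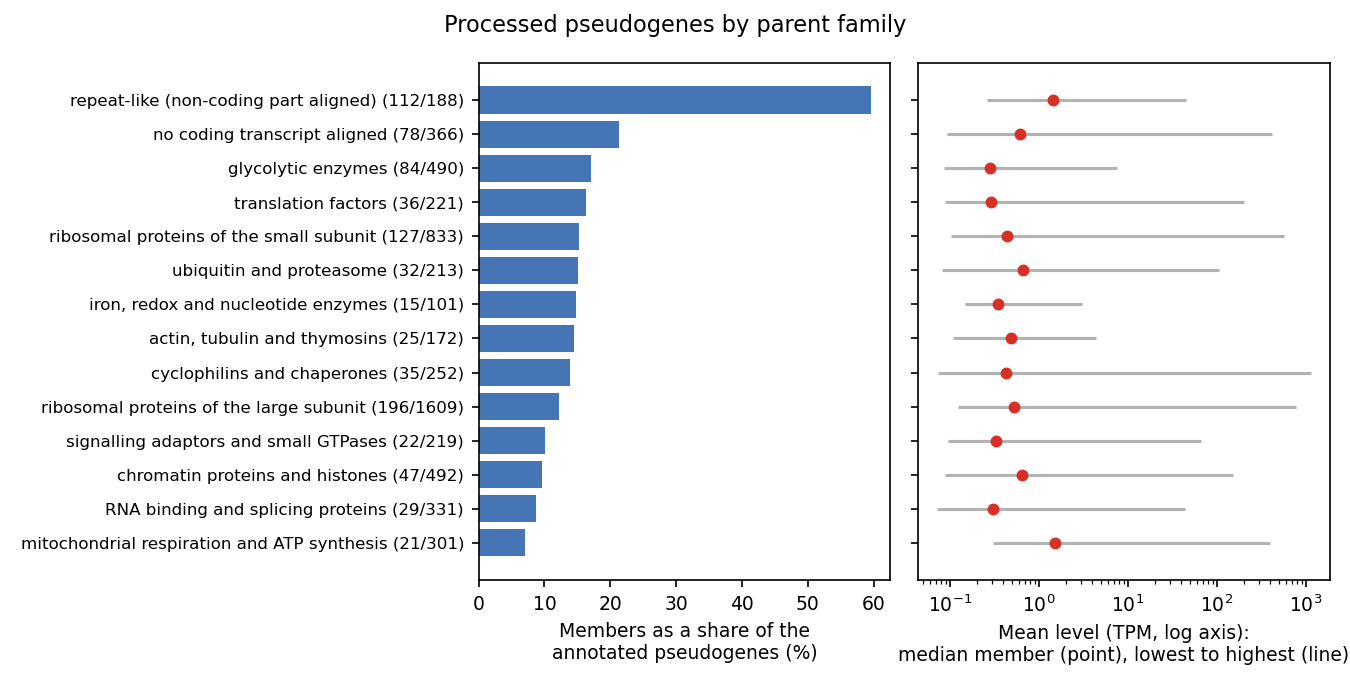
Bars give, per parent family, the members as a share of the annotated processed pseudogenes (%, with both counts in brackets), and points give the median of the members' mean level (TPM, log axis) with a line from the lowest to the highest member. The class aligned only to non-coding parts, marked repeat-like in the plot, has the largest share (59.6%) and mitochondrial genes the smallest (6.98%).

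The 112 members that aligned only to a non-coding part of protein-coding transcripts were 59.6% of the 188 such annotated transcripts and had a median level of 1.45 TPM. Such a stretch matched transcripts of a median of 89 genes, against 2 genes for members with a coding parent. In 52 of them the best match was a transcript of Vmn2r79, a vomeronasal receptor gene, and nearly all annotated transcripts of that kind (52 of 54) met the rule. These 52 had a median length of 3833.5 bases, with a range from 980 to 5020 bases. All but 2 of them met the minimum in all 12 libraries, with means of 0.348 to 24.4 TPM. They are typed as processed pseudogenes in the annotation, but no parent was found for them here. Their summed level had group means of 135 ± 19.96 TPM for control, 176 ± 19.7 for ethanol, 143 ± 23.9 for stress and 150 ± 31.3 for ethanol + stress mice (SD, n = 3), and none of the 52 was called below.

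By position, 613 members lay between genes, 329 in an intron of a gene on the opposite strand, 232 in an intron on the same strand, 65 across an exon of a gene on the opposite strand and 32 across an exon on the same strand. Of the annotated transcripts between genes 8.93% met the rule, against 21.9% and 22.7% of those in introns on the opposite and the same strand. For the same-strand introns the host gene of a member was at a median of 28.1 TPM, and that of an annotated transcript that was no member at 7.10 TPM. Across the 209 same-strand intronic members with a measured host, the level of member and host had a Spearman correlation of 0.01, and across the 1081 members with a coding parent that of member and parent was 0.05. These are descriptions across members, which share libraries and depth.

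Some members shared few words with other transcripts. With 80% or more unique words and an average of 20 or more estimated read pairs per library, 12 members qualified, a choice made after the values were seen. Of the 12, 8 had no coding parent. Among these, 4 had no alignment over 50% or more of their length and the others aligned only to a non-coding part. Words were compared between transcripts, not with the rest of the genome. The coefficient of variation of the 12 over the libraries was 8.29% to 34.8%, and 10 lay between genes. Gm46223 (675 bases, chr10:50422134-50422808, minus strand), which aligned to no protein-coding transcript over 50% or more of its length, was the highest at a mean of 106 TPM. It was at 111, 78.6 and 89.7 TPM for control, 122, 106 and 81.3 for ethanol, 76.6, 115 and 94.1 for stress, and 108, 151 and 137 for ethanol + stress mice. AA414768 on the X chromosome was the steadiest, at 8.25 ± 0.492 TPM for control, 7.48 ± 0.790 for ethanol, 7.64 ± 0.838 for stress and 8.29 ± 0.141 TPM for ethanol + stress mice (SD, n = 3). None of the 12 was called in any of the 3 comparisons below, and their largest differences were 0.51, 0.43 and 0.52 on the log2 scale for ethanol, stress and ethanol + stress.

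Among the 53 transcribed processed pseudogenes, which the annotation lists with evidence of transcription, 24 had a mean of 1 TPM or more and the median was 0.620 TPM. After Rpl37rt the highest were Gm6472 (192 TPM, a copy of Rps7), Ppp1ccb (66.9 TPM), a copy of the protein phosphatase 1 catalytic subunit gene Ppp1cc with an intact reading frame, and Gm9531 (35.4 TPM, a copy of Set). Zrsr1, an imprinted splicing factor gene that arose as a copy of Zrsr2, was at 23.5 TPM, with all its words shared with another transcript of Zrsr1 and only 77.4% identity to Zrsr2. Gm9157 and Gm9670 both lie across exons of Jpx on its strand, at means of 12.4 and 0.371 TPM. AC134468.1 (16.3 TPM) copies Usp9x, Gm1821 (16.1 TPM) the ubiquitin gene Ubb, Gm5124 (9.73 TPM) the nucleolar gene Nolc1, and Gm34583 (7.51 TPM) the ribosomal protein gene Rpl29.

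The treatments were each compared with the same 3 control libraries, on log2(TPM + 0.5), with limma over all 59852 transcripts, and a transcript was called at an unadjusted two-sided p under 0.01. On that scale the change of a low transcript is understated. In this fit no member had a Benjamini-Hochberg adjusted p under 0.05 in any comparison, the lowest limma values being 0.179 for ethanol, 0.757 for stress and 0.178 for ethanol + stress. An unadjusted p under 0.05 was found for 95, 74 and 70 members (7.47%, 5.82% and 5.51%), beside 5.43%, 3.88% and 5.57% of all transcripts. In some other fits the adjusted p of Gm49070 lay under 0.05. As this member was listed at 0 in 6 libraries, it met the rule only through the others, where it is high, and its p values are given as a description in support of nothing. For ethanol its adjusted p (limma) was 0.0463 with a pseudocount of 0.1, 0.0248 with no filter and 0.0395 with a filter on the mean, and for ethanol + stress it was 0.0274 with a pseudocount of 0.1. All calls below are at the unadjusted threshold.

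In ethanol mice 25 members were called (1.97%), of which 20 were higher (1.57%) and 5 lower (0.393%). Over all tested transcripts 1.26% were called, 0.896% higher and 0.361% lower. The members' median difference was 0.11 on the log2 scale, against 0.05 for all transcripts. With a filter on the mean level in place of the rule, 13 of 1236 members were called (1.05%), beside 1.21% of all transcripts. The count was 15 (1.18%) when either control replicate 2 or ethanol replicate 2 was left out, beside 1.18% and 0.991% of all transcripts, so that without that control mouse the members stood at the background. Once each library's trend over transcript length was removed, 20 members were called (1.57%), 10 of them higher, beside 1.22% of all transcripts, and the median was -0.01 for members and -0.01 for all. Groups did not overlap in 136 members (10.7%), against 10.2% of all transcripts. Of the 25 called members 17 had 80% or more unique words, 23 were listed at 0 in at least 1 of the 12 libraries, and of the 18 long enough for an estimate 12 had no more than 3 read pairs in any of the 6 libraries compared. The other 7 were too short for an estimate.

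Of the 5 members named for ethanol, Gm49070 had the smallest p. It was listed at 0 in all control libraries and at 2.18, 3.73 and 2.03 TPM in the ethanol libraries (adjusted p = 0.179, limma). Gm19195, a copy of the mitochondrial assembly factor gene Ndufaf4 within an intron of Ppp1r13b on the same strand, was at 0 in all control libraries and 0.728, 0.838 and 1.03 TPM in ethanol libraries, or 2 to 3 read pairs (adjusted p = 0.389). Gm9670 was at 0 in every control and at 0.666, 0.768 and 0.628 TPM for the ethanol mice, or 2 read pairs in each (adjusted p = 0.422). Both stay at or under the floor in control and ethanol mice, so no fold is given. Both were also listed at 0 in 6 libraries and met the rule only through the others, which include every ethanol library. Their p values are a description only. Gm3695, a copy of Gapdh, was at 0 in control and at 0.278, 0.487 and 0.265 TPM in ethanol libraries (adjusted p = 0.509). Gm13886, a copy of the RNA-binding protein gene Tardbp, had 0, 0 and 0.126 TPM for control and 0.343, 0.266 and 0.326 TPM for ethanol mice (adjusted p = 0.527), and with only these 2 groups in the model it was not called.

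In stress mice 18 members were called (1.42%), 11 higher (0.865%) and 7 lower (0.551%), beside 0.914% of all transcripts, 0.5% higher and 0.414% lower. The median difference was 0.02 on the log2 scale, against 0.00 for all. With only the control and stress libraries in the model, 29 members were called (2.28%, beside 1.16% of all transcripts in that model), and after removal of the length trend 19 (1.49%, beside 0.947%), of which 9 were higher. Groups did not overlap in 115 members (9.05%), against 8.22% of all transcripts. Of the 14 called members long enough for an estimate, 7 had no more than 3 read pairs in any library compared.

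Gm7809, a copy of the tropomyosin gene Tpm4 opposite to Zfp943, had the smallest p for stress, with 0 in all control libraries and 0.479, 1.15 and 0.5 TPM in stress libraries (adjusted p = 0.757, limma). Gm5138 and Gm2574 are both copies of Gapdh that differ from it at the same number of bases (3 of 1002), hold no unique word and were listed at one and the same value in every library, so that they count as a single measurement. They were at 0.356, 0 and 0 TPM for control and 1.49, 1.72 and 1.58 TPM for stress mice, the latter worth 10.5 to 11.8 read pairs (log2 difference 1.81 ± 0.37 SE, adjusted p = 0.779). Gapdh was at 1708 TPM on average, and its copies Gm5138 and Gm2574 carry the C of the member line below.
Gm5138: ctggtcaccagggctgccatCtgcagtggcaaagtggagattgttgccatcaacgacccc
Gapdh: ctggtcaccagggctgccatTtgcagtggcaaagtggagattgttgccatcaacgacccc

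These stretches lie at chr6:83875279-83875338 for Gm5138 (minus strand, opposite to Zfp638 within an intron) and chr6:125163358-125163417 for Gapdh (minus strand). Gm17906, a copy of the nucleolar protein gene Npm1, was at 0.344, 0.190 and 0.177 TPM for control and 0.786, 0.938 and 1.07 TPM for stress mice, or 1 to 2 against 5 to 7 read pairs (0.96 ± 0.24 SE, adjusted p = 0.885, limma), and leaving out control replicate 2 or 3, or fitting only the 2 groups compared, ended the call. Gm46387, a copy of the nucleoside diphosphate kinase gene Nme1 and the highest member of its family, had 2.15, 2.38 and 0.556 TPM for control and 3.90, 5.81 and 4.26 TPM for stress mice (1.35 ± 0.39 SE, adjusted p = 0.985), and leaving out control replicate 3, stress replicate 2 or stress replicate 3, or fitting those 2 groups alone, ended the call.

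In ethanol + stress mice 14 members were called (1.10%), 11 higher (0.865%) and 3 lower (0.236%). Over all transcripts 1.21% were called, 0.767% higher and 0.446% lower. The median difference was 0.04 for members and 0.04 for all transcripts, and after removal of the length trend it was -0.04 for members and 0.00 for all, with 14 members called (1.10%, beside 1.18%) and 7 of them higher. Groups did not overlap in 90 members (7.08%), against 10.2% of all transcripts. Of the 10 called members long enough for an estimate 2 had no more than 3 read pairs in any library compared, and 4 of the 14 had 80% or more unique words.

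Gm4202 and Gm42642 had the highest mean levels of the called members named here. Gm4202, the Ywhaz copy shown above, was at 42.9, 40.6 and 44.0 TPM for control, or 163 to 189 read pairs. It was at 10.1, 14.96 and 21.9 TPM for ethanol + stress mice, or 47.7 to 92.3 read pairs, and no value overlapped. Only 26 of its 703 words were unique, so these read pairs rest on how kallisto divided pairs shared with Ywhaz. The listed level of Gm4202 fell by 1.48 ± 0.34 (SE) on the log2 scale (adjusted p = 0.554, limma). In ethanol libraries it was at 20.9, 26.5 and 20.5 TPM, also below every control library but not called (adjusted p = 0.865, limma), while in stress libraries 45.2, 61.2 and 21.6 TPM lay on both sides. Ywhaz itself was at 730 to 780 TPM for control and 608 to 760 TPM in ethanol + stress libraries (-0.19 ± 0.11 SE, adjusted p = 0.791).

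Gm42642 is 355 bases long, too short for an estimate of read pairs, and lies between genes (chr6:3182630-3182984, minus strand). It aligned to no protein-coding transcript over 50% or more of its length and had unique words only. It was at 13.0, 12.1 and 18.02 TPM for control and at 20.6, 28.6 and 24.5 TPM for ethanol + stress mice. The groups did not overlap, and the difference was 0.76 ± 0.17 (SE) on the log2 scale (adjusted p = 0.526, limma). Ethanol libraries (13.1 to 16.5 TPM) and stress libraries (12.6 to 15.2 TPM) lay within the control range. Its first 120 bases (chr6:3182865-3182984) are given because no parent describes it.
Gm42642: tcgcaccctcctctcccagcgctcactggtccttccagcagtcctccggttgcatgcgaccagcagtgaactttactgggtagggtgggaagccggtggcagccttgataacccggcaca

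**Figure D5:**
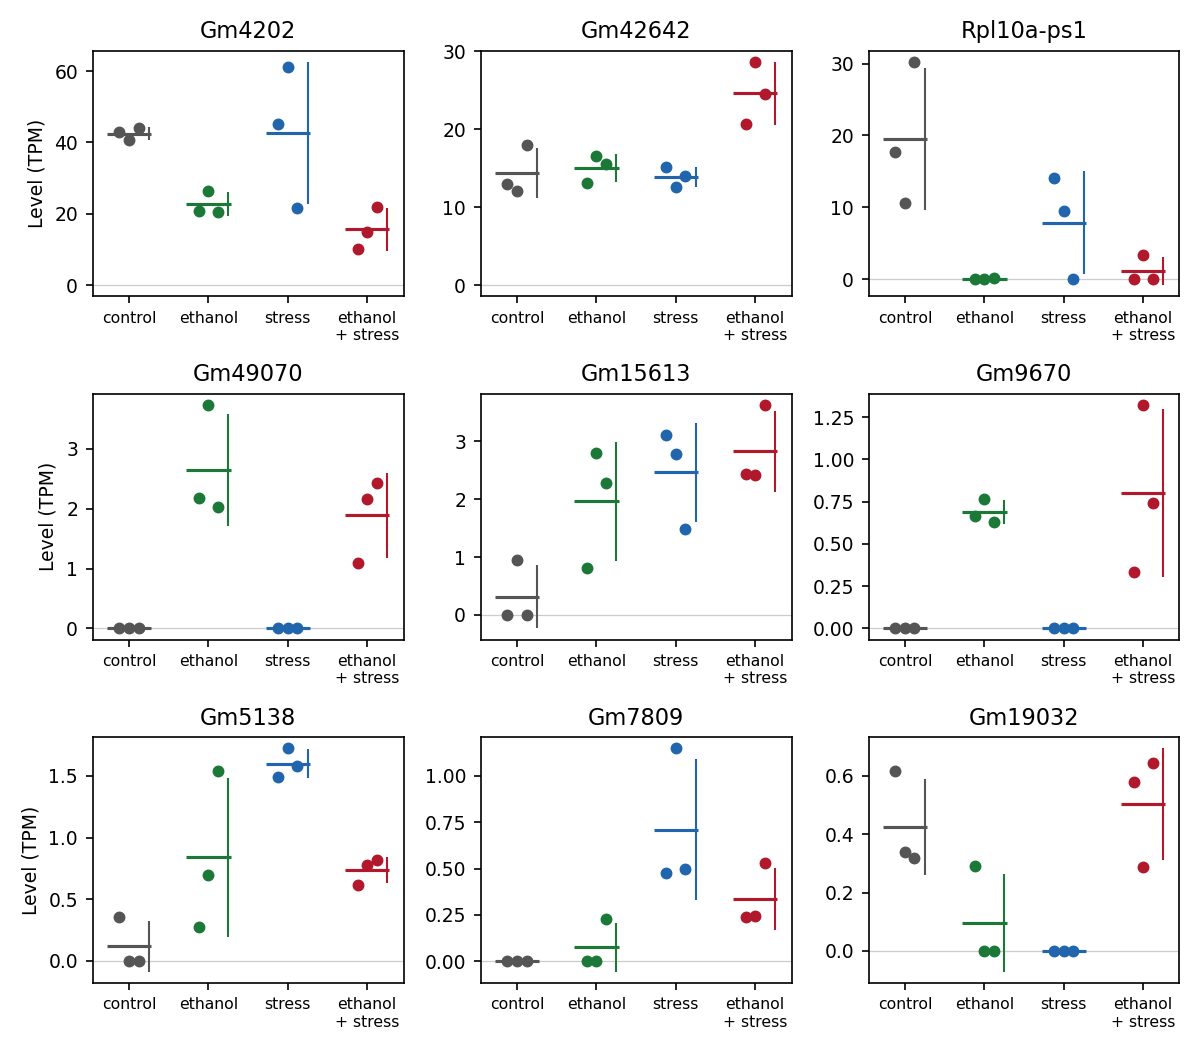
Points give the deposited level (TPM) of 9 called members in each mouse, with the group mean as a horizontal line and ± 1 SD as a vertical one (n = 3). Gm4202 lies lower in every ethanol + stress mouse (10.1 to 21.9 TPM) than in every control mouse (40.6 to 44.0 TPM), and Gm49070 and Gm9670 are listed at 0 in all control and stress mice.

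Several members were called in more than one of these comparisons, which share the control libraries and are therefore not independent. Gm49070 was at 1.09, 2.16 and 2.43 TPM in ethanol + stress libraries and at 0 in every stress library (adjusted p = 0.178 for ethanol + stress, limma). Its putative parent Msl1 was at 63.2 to 75.8 TPM over all libraries. At 282 bases, Gm49070 is too short for an estimate of read pairs. Gm9670 was at 0.332, 1.32 and 0.743 TPM in ethanol + stress libraries, or 1 to 4 read pairs, and at 0 in every stress library (adjusted p = 0.463). Both members were listed above 0 in the 6 libraries of mice exposed to ethanol and at 0 in the other 6. A member at 0 in 6 libraries could meet the rule only through all of the others. Both were also named for a small p among 1271 members, so that this split is a description and no finding.

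Gm15613 (326 bases), a copy of Hcfc1r1 at 71.8% identity with unique words only, was called in all 3 comparisons. It had 0, 0.947 and 0 TPM for control, 0.810, 2.79 and 2.28 for ethanol, 3.11, 2.78 and 1.49 for stress, and 2.43, 2.42 and 3.62 for ethanol + stress mice. The adjusted p values from limma were 0.741, 0.885 and 0.526. In ethanol mice the groups overlap through ethanol replicate 1, and 6 of 18 refits, each under another setting or without 1 library, lost the ethanol call, among them those without control replicate 1, control replicate 3, ethanol replicate 2 or ethanol replicate 3. It lies opposite to the phosphatase gene Ppp1cb, within an intron.

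Gm2140, which lies between genes and holds unique words only, was listed at 0 in control and at 1.71, 0.981 and 0.402 TPM in ethanol and 0.820, 0.489 and 0.797 TPM in stress libraries, which is 1 to 4 read pairs (adjusted p = 0.533 and 0.929, limma). It stood at 0.426, 0.423 and 0 TPM in ethanol + stress libraries. Its stress call was lost in 5 of 17 refits, those without any 1 control replicate, stress replicate 1 or stress replicate 3. Gm10297, a copy of the kinase-anchoring gene Gkap1 with 2.90% unique words, was at 2.20, 0 and 0 TPM in control and at 3.82, 1.03 and 6.30 TPM in ethanol libraries, where it was not called. It was at 2.76, 3.50 and 5.27 TPM in stress and 7.21, 2.59 and 4.49 TPM in ethanol + stress libraries (adjusted p = 1 and 0.769, limma). Of 18 refits, its stress call was lost in 12, among them those without control replicate 2, control replicate 3 or any 1 stress replicate, and 13 kept its ethanol + stress call, which was lost without control replicate 2 or 3, without ethanol + stress replicate 1 or 3 and with only the 2 groups compared.

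Rpl10a-ps1 was called lower in both ethanol and ethanol + stress mice. It is identical to Rpl10a over all 654 bases and had no unique word. It was at 17.7, 10.7 and 30.2 TPM in control libraries and at 0, 0.00166 and 0.211 TPM in ethanol libraries (adjusted p = 0.533, limma). In ethanol + stress libraries it was at 0.00245, 3.42 and 1.63e-07 TPM (adjusted p = 0.738), and in stress libraries at 14.1, 9.44 and 0.00280 TPM. The ethanol + stress call was lost in 4 of 18 refits, those without control replicate 1 or 3 and without ethanol + stress replicate 1 or 3. Values such as 1.63e-07 TPM are worth far less than 1 read pair. Rpl10a was at 302 to 388 TPM for control and 312 to 581 TPM for ethanol mice, and was not called (0.29 ± 0.23 SE, adjusted p = 0.996). The start of both coding sequences (chr1:64994545-64994604, minus strand, and within chr17:28328614-28328865, plus strand) shows the identity.
Rpl10a-ps1: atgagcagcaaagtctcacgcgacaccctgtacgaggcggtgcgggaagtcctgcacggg
Rpl10a: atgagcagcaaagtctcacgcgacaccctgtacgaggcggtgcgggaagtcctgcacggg

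The effect of ethanol in separated mice was set against that in undisturbed mice by the interaction term of the same model. It was called for 17 members (1.34%), 7 positive and 10 negative, against 0.854% of all transcripts, and for 15 (1.18%, beside 0.887%), 8 of them positive, after removal of the length trend, and the lowest adjusted p was 0.738 (limma). At an unadjusted p under 0.05 there were 62 (4.88%), beside 4.06% of all transcripts. Without control replicate 3 there were 9 calls (0.708%, beside 0.884% of all transcripts), without stress replicate 3 there were 10 (0.787%, beside 0.875%) and without stress replicate 1 there were 11 (0.865%, beside 0.912%), all under the background. Gm19032, a copy of the paraspeckle protein gene Nono, led them. It was at 0.614, 0.340 and 0.318 TPM for control, 0.289, 0 and 0 for ethanol, 0 for every stress mouse, and 0.577, 0.287 and 0.645 TPM in ethanol + stress libraries, all worth 2 read pairs or fewer. Gm2140 and Gm19195 followed, both with their highest values in ethanol mice.

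By family the calls were few and scattered. Among the 323 members of the ribosomal families 5 were called for ethanol (1.55%, beside 1.26% of all transcripts), 3 of them higher. For stress 2 were called (0.619%, beside 0.914%), none higher, and for ethanol + stress 7 (2.17%, beside 1.21%), 6 of them higher. In ethanol + stress mice 4 copies of small-subunit genes were called, all higher, among 127 (3.15%), beside 0.767% of all transcripts called higher. Translation factors had no call in any comparison, nor had cyclophilins and chaperones, and of the class aligned only to non-coding parts 1 of 112 was called (0.893%), lower in stress. Of the 84 copies of glycolytic genes 2 were called for ethanol (2.38%, beside 1.26% of all transcripts) and none for ethanol + stress. For stress Gm5138 and Gm2574 were called, which are a single measurement. For ethanol 11 of the 232 members in introns on the same strand were called (4.74%), 9 of them higher, and 4 of the 613 between genes (0.653%), 2 of them higher, beside 1.26% of all transcripts. In introns on the opposite strand 9 of 329 were called for ethanol (2.74%). Of the same 232 members 1 was called for stress and 1 for ethanol + stress (0.431% each), beside 0.914% and 1.21% of all transcripts.

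Of 552 parent genes tested as sums over their transcripts, 1 was called for ethanol, none for stress and 3 for ethanol + stress, beside 0.679%, 0.51% and 0.972% of all genes. The gene called for ethanol was S100a11, a calcium-binding protein gene, and in ethanol + stress mice S100a11, Eno1b and Sinhcaf were called, none with an adjusted p under 0.05 (limma). No parent of a called member was called, among 24 such members for ethanol, 17 for stress and 13 for ethanol + stress. The median difference of the parents was 0.05, 0.02 and 0.10 on the log2 scale, against 0.02, 0.00 and 0.02 over all genes.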

How the data were processed

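Paired-end reads were pseudoaligned by the authors to the Ensembl mouse transcriptome with kallisto and used sleuth (with CASAVA named in the submitters' notes; versions not given in the sources used here), and deposited a signal per transcript: TPM scaled between libraries. These are not counts, so limma 3.58.1 (R 4.3.3; lmFit, eBayes with trend) was fitted on log2(TPM + 0.5) to all transcripts at 0.1 or more in at least 6 of 12 libraries, in 1 model of 4 groups taken from the labels. Calls are at an unadjusted two-sided p under 0.01, with Benjamini-Hochberg adjustment over all tested features. Genes were tested as sums over transcripts.

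Types, coordinates and sequences came from GENCODE vM21, to which 113492 of 115270 transcripts matched. A parent is the protein-coding gene with the best blastn 2.17.0 alignment (word size 11, e-value limit 1e-10, gene overlapping the member left out) over 50% or more of the member, with at least 30 coding bases aligned. That class, and family names from alignments within 5% of the best score, were set after seeing the data. A unique word is a 31-base word in no other transcript, whether of the same gene or of another. Depth was estimated per library from the step between low values of single-transcript genes (82.5% to 88.1% whole within 0.15 of a read pair). Read pairs were estimated for members of 400 bases or more. The floor of 3 read pairs and all such estimates cover counting error only.

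Named members were the 10 with the highest mean, up to 5 called members per treatment with the smallest p and no overlap with control, 3 for the interaction, those called in the same direction in 2 or more treatments, the highest of each family with 10 or more members, and up to 10 transcribed ones. The parent of Gm2140 is not reported here. The members, lists and rules were chosen with earlier results of these data known. The procedure was tested on simulated data for ethanol against control over 59852 transcripts. It called 82% of 100 transcripts shifted by 2 log2 units, 46% of 100 shifted by 1 and 1.11% of the others. These rates are for transcripts of all kinds, and the rate for members alone, most of them at a low level, was not tested. The alternatives tried were a pseudocount of 0.1 or 1, other filters and scalings, removal of the length trend, eBayes without trend, only the groups compared, a replicate block, each replicate left out, other thresholds, sums by parent and members with 20% or more unique words. Restrictions to members of 300 bases or more and to coding parents were added after seeing the data. Other steps used Python (3.11.15) with numpy (2.4.6), pandas (2.3.3), matplotlib (3.10.9) and scipy (1.17.1).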

Additional observations from a re-analysis of the deposited data

Results flagged for a closer look

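In 6 named members the effect of ethanol differed between separated and undisturbed mice by the interaction term of the model at an unadjusted p under 0.01, while none passed after adjustment in that fit (limma, adjusted p from 0.738 to 1). The term was 1.64 ± 0.32 (SE) on the log2 scale for Gm19032, which was listed below control in ethanol and in stress mice but not in ethanol + stress mice. It was -2.18 ± 0.49 for Gm2140, -1.70 ± 0.40 for Gm19195 and -0.72 ± 0.23 for Gm3695, all listed at 0 in every control library. Gm5138 and Gm2574 shared a term of -1.82 ± 0.52, being listed at the same values. Of 22 refits under other settings or without 1 library, Gm19032, Gm2140 and Gm19195 kept the call in 22, Gm5138 and Gm2574 in 13 and Gm3695 in 7. The first 3 of these members stand on 4 read pairs or fewer in any library. Gm19195 was listed at 0 in 6 libraries and met the rule only through the others, which include every ethanol library. Its kept calls are therefore a description in support of nothing. Samples far from their group were not sought, as groups of 3 are too small.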

How the results depend on the processing

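Counts of called members are given for ethanol, stress, ethanol + stress and the interaction in this order. With a minimum of 1 TPM, which leaves 371 members, they were 5, 4, 6 and 3 (1.35%, 1.08%, 1.62% and 0.809%, beside 0.903%, 0.670%, 1.01% and 0.593% of all transcripts). At an adjusted p under 0.05 they were 0, 0, 0 and 0, and at an unadjusted p under 0.05 they were 95, 74, 70 and 62 (7.47%, 5.82%, 5.51% and 4.88%, beside 5.43%, 3.88%, 5.57% and 4.06% of all transcripts). A filter on the mean gave 13 of 1236 for ethanol (1.05%, beside 1.21% of all transcripts) and 11 of 1236 for the interaction (beside 0.853%), and the 2 groups alone gave 29 for stress (2.28%, beside 1.16%). Members of the same coding parent were also summed, with each member without such a parent kept singly. These 761 values gave 18, 11, 9 and 9 (2.37%, 1.45%, 1.18% and 1.18%, beside 1.26%, 0.910%, 1.21% and 0.849%). The 952 members with 20% or more unique words gave 22, 13, 9 and 9 (2.31%, 1.37%, 0.945% and 0.945%, beside 1.26%, 0.914%, 1.21% and 0.854%), and a median summed level of 1110 TPM against 8427. Without each replicate in turn the counts were 15 to 26, 15 to 20, 15 to 21 and 9 to 18. The shares were 1.18% to 2.05%, 1.18% to 1.57%, 1.18% to 1.65% and 0.708% to 1.42%, beside 0.991% to 1.42%, 0.852% to 1.02%, 1.02% to 2.23% and 0.830% to 1.03% of all transcripts, and the medians were 0.06 to 0.14, 0.00 to 0.06 and 0.04 to 0.10. Members lay under the background without ethanol + stress replicate 1 (1.42%, beside 2.23%, for ethanol + stress), and for the interaction without control replicate 3 (9 calls, 0.708%, beside 0.884%), stress replicate 1 (11, 0.865%, beside 0.912%) and stress replicate 3 (10, 0.787%, beside 0.875%). Removal of the length trend took the ethanol median to -0.013, and a common total took that of ethanol + stress to -0.01. With the replicate number as a block the counts were 21, 19, 11 and 13 (1.65%, 1.49%, 0.865% and 1.02%, beside 1.21%, 0.922%, 1.166% and 0.882%). The numbers do not pair the mice, since same-numbered mice deviated with correlations of -0.06 to 0.08 and others of -0.13 to 0.13. The causes were not tested. The length trend was not run for the summed level. Of 552 refits of 30 calls of named members, 477 kept the call, 75 lost it and 0 reversed, and 18 of the 30 were called in every refit. The 18 include the calls of Gm49070, Gm9670 and Gm19195, which met the rule only through the libraries where they are above 0. These counts are a description, as the members were named for a small p in the same data. Depth limits all this, as 262 of 1032 members never exceeded 3 read pairs.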
